A study of Mus musculus with 6 samples.

Results

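Histone acetylation is set by acetyltransferases and deacetylases, read by bromodomain proteins, and acted on together with chromatin remodellers, Polycomb complexes and DNA methyltransferases. The genes described here are 37 such chromatin regulators, chosen by symbol as a list of enzymes, readers and complex subunits. All 37 were found among the 31276 gene symbols of the count table, and all 37 were among the 16592 genes with enough reads to be tested. RNA came from brains of C57BL/6 mice aged 14 days, in 3 samples labelled PRMT5 olig2cre KO and 3 labelled WT (wild type). By its label, the KO removes Prmt5, which encodes an arginine methyltransferase of histones and spliceosome proteins, in cells that express Cre under control of Olig2. Olig2 is active in the oligodendrocyte lineage and in some other neural cells, and the brain holds many cells outside this lineage. The sources used here do not give the targeted alleles, whether WT mice carried Cre or an unrecombined allele, or whether a sample is 1 animal or a pool. The p-values cover only the variation among these 6 samples, some of which may be technical.

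Acetyl groups on histone tails weaken the contact of nucleosomes with DNA and recruit bromodomain proteins, and deacetylases remove them, mostly as part of corepressor complexes. In oligodendrocyte precursors the class I deacetylases are known to be needed for differentiation, and Polycomb, Smarca4 and Chd7 are known to act in the lineage. PRMT5 places symmetric methyl groups on histone arginines next to lysines that can be acetylated. The comparison asks whether transcripts of the enzymes and readers of acetylation differ in level when Prmt5 is targeted. Levels of transcripts do not measure enzyme activity or histone marks.

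The libraries held 15089140 to 16872925 counts. Prmt5 itself stood at 68.2, 68.4 and 81.6 CPM (counts scaled to a common library total) in KO replicates 1 to 3, against 90.8, 90.4 and 91.8 CPM in WT replicates 1 to 3, with no overlap (edgeR adjusted p = 0.232, and 0.0379 with the replicate number as a block). The 10 oligodendrocyte markers summed to 963 to 1990 CPM in KO and 7727 to 10445 CPM in WT, and all 10 fell. The 4 oligodendrocyte precursor markers summed to 231 to 237 CPM in KO and 557 to 587 CPM in WT, and 3 of 4 were called lower by edgeR. The 6 neuronal markers summed to 4515 to 5173 CPM in KO and 4441 to 5218 CPM in WT, and 0 of 6 were called by edgeR. The 6 meningeal fibroblast markers summed to 203 to 298 CPM in KO and 117 to 123 CPM in WT, with 4 that rose, and the 7 cycling cell markers summed to 63.3 to 84.8 CPM in KO and 43.9 to 61.5 CPM in WT, with 0 of 7 called. Of the 5 cerebellar granule cell markers, Gabra6 stood above 5 CPM in KO replicates 1 and 3 and WT replicate 1 and at 0 in the other libraries. Xist, transcribed in females, stood above 5 CPM in KO replicates 1 and 2 and WT replicate 2. Long genes lay low in KO replicate 3, and that pattern is given in full further on because many chromatin regulators are long.

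Most members have a CpG-rich promoter window, and most promoter windows of tested genes are CpG-rich. RefSeq windows of 300 bases (250 before to 50 after the start, GRCm38.p6) were found for 32 of the 37 genes, 48 windows in all. Of these windows 34 (70.8%) were CpG-rich, taken as at least 50% G or C and a CpG dinucleotide count at least 0.6 of that expected from the base content. The share was 61.4% among the 14455 windows of genes tested here and 33.5% among all 32851 windows. CG is its own reverse complement, so a count on 1 strand covers both. The median window of a member held 24.5 CpG and the median window of a tested gene 19. The range among members was 0 to 49. The 250 bases before the start are shown for 3 members. Eed and Hdac6 had the smallest p-values in the comparison of KO with WT, and Hdac9 is a CpG-poor contrast. Each CpG is in capitals, and the strand is that of the gene.
Eed, chr7:89980977-89981226, minus strand: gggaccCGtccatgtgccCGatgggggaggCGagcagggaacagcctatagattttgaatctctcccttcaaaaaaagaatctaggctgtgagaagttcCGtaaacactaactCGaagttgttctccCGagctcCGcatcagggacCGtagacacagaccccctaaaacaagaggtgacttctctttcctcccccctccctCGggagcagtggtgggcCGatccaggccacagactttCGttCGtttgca
Hdac6, chrX:7947890-7948139, minus strand: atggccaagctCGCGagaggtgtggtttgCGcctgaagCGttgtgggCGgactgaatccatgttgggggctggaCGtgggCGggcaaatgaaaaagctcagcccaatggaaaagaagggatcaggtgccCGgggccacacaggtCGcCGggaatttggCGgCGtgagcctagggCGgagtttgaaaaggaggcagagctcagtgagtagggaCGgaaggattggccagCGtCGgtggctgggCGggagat
Hdac9, chr12:34528890-34529139, minus strand: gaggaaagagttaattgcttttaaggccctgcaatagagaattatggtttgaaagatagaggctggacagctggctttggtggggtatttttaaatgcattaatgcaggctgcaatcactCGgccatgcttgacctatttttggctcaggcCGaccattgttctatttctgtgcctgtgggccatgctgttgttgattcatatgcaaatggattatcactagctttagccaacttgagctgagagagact
The printed stretch of Eed holds 12 CpG, that of Hdac6 holds 17 and that of Hdac9, the start of a shorter transcript inside the gene, holds 2.

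Levels of the 37 genes spanned 43.8-fold when expressed per length, as RPKM (reads scaled for exonic length and library total, computed with exonic lengths from GENCODE M21). The median member stood at 6.13 RPKM and the median tested gene at 4.82 RPKM, and 23 of 37 members were above that tested gene. The highest was Hdac11, the only class IV deacetylase, at 55.4 ± 10.5 RPKM in KO and 50.5 ± 3.41 RPKM in WT (SD, n = 3 each). It was followed by the bromodomain gene Brd2 (36.2 ± 2.35 RPKM in KO and 38.1 ± 0.283 in WT), the remodeller ATPase gene Smarca4 (28.9 ± 2.99 RPKM in KO and 30.8 ± 0.519 in WT), the acetyltransferase gene Kat2a (31.2 ± 1.55 RPKM in KO and 28.4 ± 2.62 in WT) and the class I deacetylase gene Hdac3 (27.8 ± 0.568 RPKM in KO and 27.1 ± 1.13 in WT). Smarca4 and Kat2a lay within their spread of each other. The lowest were Rcor1, a corepressor that joins Kdm1a to deacetylases, Ezh2, the Polycomb methyltransferase of dividing cells, and the class IIa deacetylase gene Hdac4. In KO brain they stood at 1.53 ± 0.242, 1.15 ± 0.153 and 1.08 ± 0.192 RPKM. In WT brain they stood at 1.79 ± 0.339, 1.33 ± 0.301 and 1.34 ± 0.175 RPKM. Even these had at least 104 counts in every library.

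**Figure D1:**
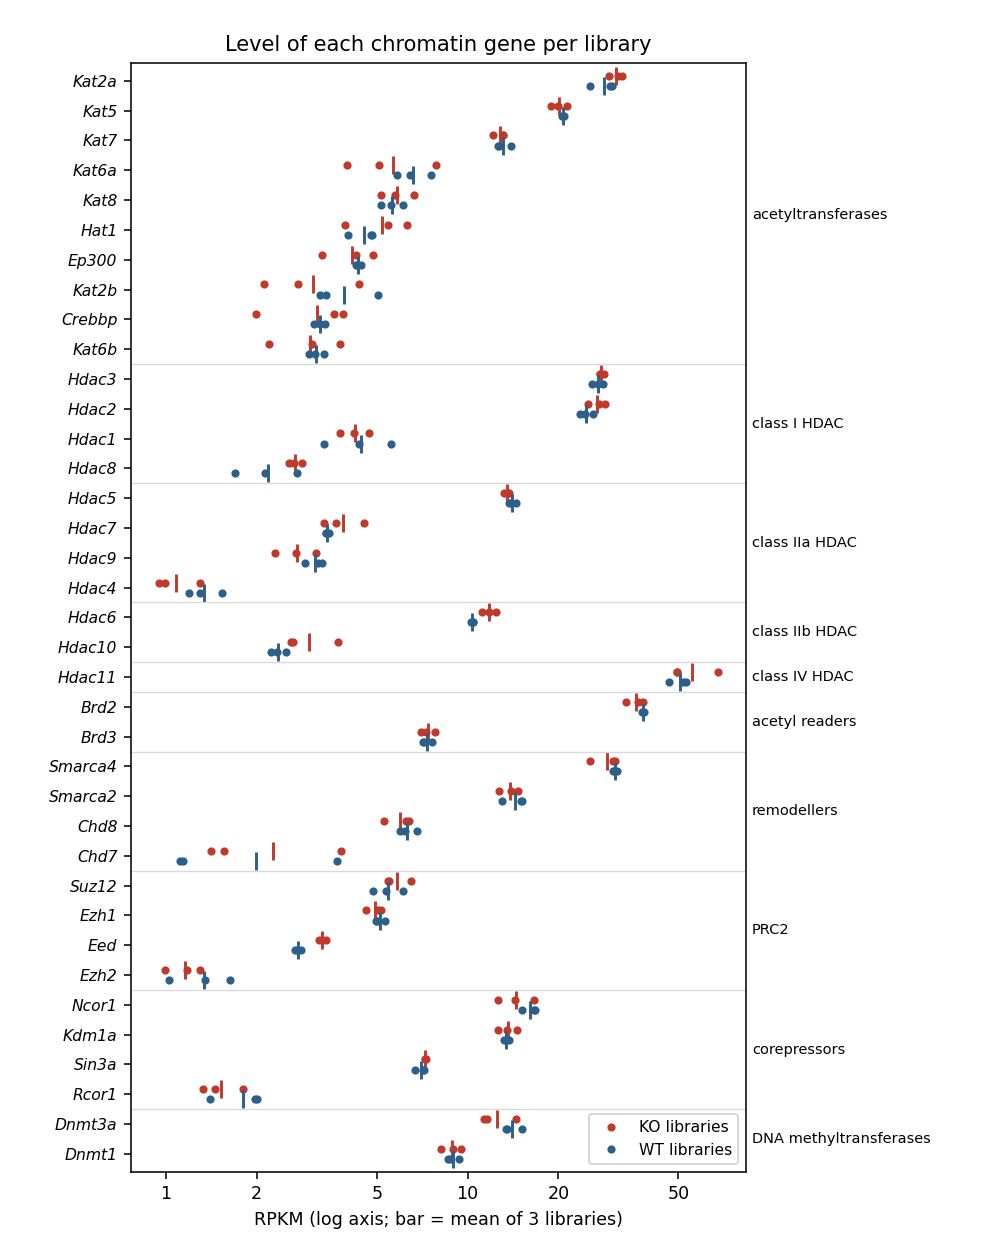
Level of each of the 37 chromatin genes in every library, in RPKM on a log axis, grouped by role, with KO libraries in red above WT libraries in blue and a bar at the mean of 3 libraries. Hdac11 lies highest, Hdac4 lowest, and the libraries of the 2 groups lie close together for most genes.

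No chromatin regulator of the 37 passed the threshold for a difference between KO and WT, a Benjamini-Hochberg adjusted p under 0.05 over all tested genes. Of 37 members 0 were called by edgeR's quasi-likelihood test, where 1.20% of all tested genes were. DESeq2 called 0 of 37, where it called 1.90% of genes, and edgeR with the replicate block called 0 of 37, where it called 3.41%. At an unadjusted p under 0.05 there were 0 of 37 members by edgeR against 9.67% of all tested genes, 0 by DESeq2 against 6.45% and 5 with the block (Kat2b, Kat6a, Hdac4, Chd7 and Dnmt3a), where the block gave 15.9% of genes. The DESeq2 share of 6.45% is over 22125 genes, more than the 16592 tested by edgeR, because no filter on low counts came first. A share of 0 in 37 is close to a background of 1.20% and says little by itself. In bulk tissue, fewer cells of a type and less RNA per cell cannot be told apart.

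The intervals limit how large a difference in RNA of the whole sample could be. They do not bound a difference within the cells that express Cre, which are only a part of the tissue. Log2 fold changes of KO over WT ran from -0.34 to 0.34, with 16 positive and 21 negative values, a median of -0.04 and a median size of 0.09, against a median of 0.01 and a median size of 0.14 over all tested genes. For 28 of 37 members the whole 95% interval lay within 1.5-fold in either direction, as it did for 60.0% of tested genes. The other 9 were Kat2b, Kat6a, Hat1, Hdac4, Hdac8, Hdac10, Chd7, Ezh2 and Rcor1. For 36 of 37, all but Chd7, it lay within 2-fold. The KO and WT ranges did not overlap for 5 of 37 members, Hdac6, Hdac10, Eed and Sin3a with KO above WT and Hdac5 with KO below WT, where 16.0% of all tested genes had ranges apart, 8.02% with KO above and 7.99% with KO below.

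**Figure D2:**
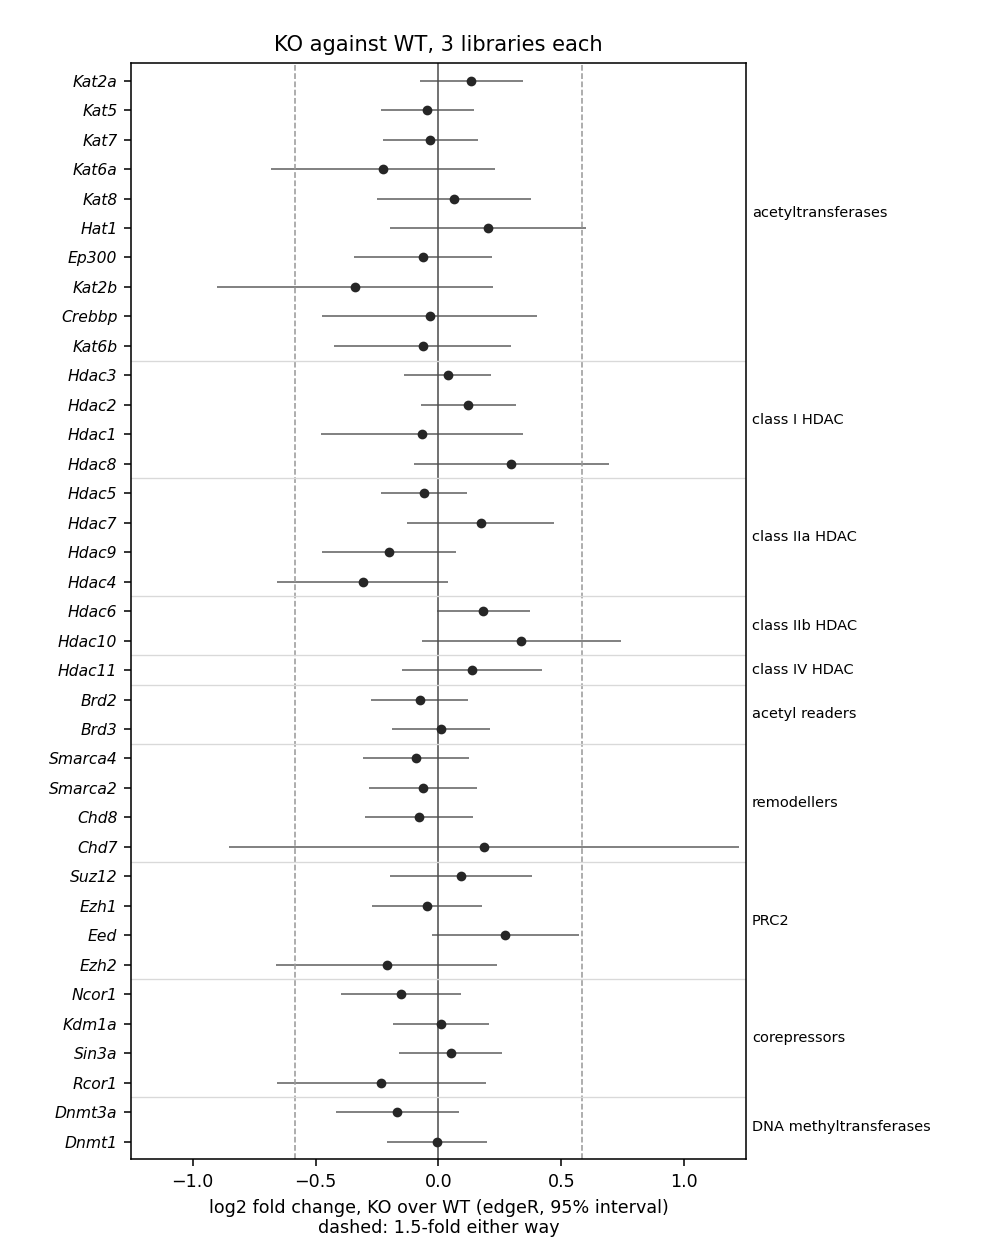
Log2 fold change of KO over WT with its 95% interval (edgeR, 3 libraries each) for each member, grouped by role. Dashed lines mark 1.5-fold in either direction, and the intervals of 28 of 37 members lie between them; that of Chd7 is the widest.

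Among the acetyltransferases, which write the mark, 3 of 10 values were positive and 7 negative, with a median log2 fold change of -0.04. Kat2a (chr11:100704746-100712465, mm10), the catalytic subunit of the SAGA and ATAC coactivator complexes, had the smallest p of the 10. It stood at 102.5, 109.8 and 113.0 CPM in KO replicates 1 to 3 and at 88.3, 103.4 and 104.7 CPM in WT replicates 1 to 3. The groups overlapped, with WT replicate 1 the lowest (log2 fold change 0.13, SE 0.0944, edgeR adjusted p = 0.686). Its paralog Kat2b (chr17:53566861-53672720) stood at 21.3, 13.4 and 10.3 CPM in KO and at 24.5, 15.8 and 16.5 CPM in WT, and was the lowest value of the list at -0.34 (SE 0.255). Replicate 1 was the highest of each group. With single libraries left out, the log2 fold change of Kat2b ran from -0.68 without KO replicate 1 (adjusted p = 0.173) to -0.11 without WT replicate 1, and it was -0.13 without KO replicate 3.

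The paralogous coactivators Ep300 and Crebbp, which acetylate histones at enhancers, had log2 fold changes of -0.06 (SE 0.128) and -0.04 (SE 0.198). Crebbp stood at 52.3, 48.9 and 27.0 CPM in KO and at 45.5, 42.0 and 43.9 CPM in WT. KO replicate 3 stood apart below all others, while KO replicates 1 and 2 lay above every WT library. Without KO replicate 3 the value of Crebbp was 0.21 (edgeR adjusted p = 0.622), and without KO replicate 1 it was -0.21 (0.655). Kat6a and Kat6b, of the MYST family of acetyltransferases, had -0.22 (SE 0.206) and -0.06 (SE 0.163), and both were lowest in KO replicate 3, at 36.5 and 37.04 CPM. Single libraries decided these values. Kat6a was at -0.03 without KO replicate 3 and at -0.54 without KO replicate 1 (edgeR adjusted p = 0.0955). Kat6b was at 0.12 without KO replicate 3 and at -0.26 without KO replicate 2. Log2 fold changes of the other MYST genes, Kat5, Kat7 and Kat8, were -0.04, -0.03 and 0.06. Kat5, the catalytic subunit of the TIP60 complex, stood at 70.5 ± 4.36 CPM in KO and 72.8 ± 0.746 CPM in WT, Kat7 at 70.8 ± 3.04 CPM in KO and 72.4 ± 4.05 CPM in WT, and Kat8, which acetylates histone H4, at 16.93 ± 2.17 CPM in KO and 16.2 ± 1.37 CPM in WT (SD, n = 3 each). Reads of Kat5 and Kat8 may be shared with Rnaseh2c and Prss8, which overlap them on the opposite strand. Hat1, which acetylates newly made histones, stood at 15.07 ± 3.46 CPM in KO and 13.1 ± 1.33 CPM in WT.

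Of the 4 class I deacetylase genes, 3 had positive values. Hdac1 and Hdac2 encode the enzymes of the SIN3, NuRD and CoREST complexes, and Hdac8 encodes an enzyme that works on cohesin. Hdac2 stood at 111.8, 121.6 and 127.6 CPM in KO and at 116.2, 105.8 and 109.8 CPM in WT, with KO replicate 1 inside the WT range (log2 fold change 0.12, SE 0.0876, interval 0.951 to 1.24-fold). Hdac3, the catalytic subunit of the NCOR complexes, stood at 113 ± 2.301 CPM in KO and 110 ± 4.58 CPM in WT, the narrowest interval of the class at 0.907 to 1.16-fold. Hdac1 was much less abundant, at 14.6 ± 1.57 CPM in KO and 15.2 ± 3.88 CPM in WT. Hdac8 (chrX:102284639-102505359) had the smallest p of the class. It stood at 13.6, 12.3 and 12.9 CPM in KO and at 10.3, 8.2 and 13.1 CPM in WT, where WT replicate 3 lay within the KO range (0.30, SE 0.180, edgeR adjusted p = 0.630). Hdac8 lies on the X chromosome, and with sex as a term its value was 0.40 (adjusted p = 0.485). It was 0.14 without WT replicate 2 and 0.48 without WT replicate 3.

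Class IIa deacetylases shuttle between nucleus and cytoplasm and bind MEF2 transcription factors, and 3 of 4 values were negative. Hdac4 (chr1:91928779-92195699) stood at 20.6, 15.7 and 15.0 CPM in KO and at 20.5, 18.8 and 24.2 CPM in WT, with KO replicate 1 inside the WT range (-0.31, SE 0.158, edgeR adjusted p = 0.563, and 0.284 with the block). With single libraries left out it ran from -0.46 to -0.21. Reads of Hdac4 may be shared with the noncoding gene Gm26720, which overlaps 3536 of its exonic bases on the opposite strand. Hdac9 stood at 46.1, 39.4 and 33.7 CPM in KO and at 42.4, 46.8 and 48.1 CPM in WT (-0.20, SE 0.124). Both are long genes, and with length-adjusted offsets their values were -0.22 and -0.11. Hdac5, the most abundant of the class, stood at 119.4, 115.5 and 120.2 CPM in KO and at 120.6, 127.2 and 121.9 CPM in WT. All KO libraries lay below all WT libraries, by a log2 fold change of only -0.06 (SE 0.0796), which was 0.01 with length-adjusted offsets. Hdac7, best known from blood vessels and thymus, stood at 26.0 ± 4.20 CPM in KO and 23.1 ± 0.372 CPM in WT.

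Both class IIb genes had positive values. Hdac6 (chrX:7930120-7947889), a mainly cytoplasmic enzyme that deacetylates tubulin, had the smallest p of all 37 members. It stood at 64.8, 68.6 and 72.1 CPM in KO and at 60.8, 59.9 and 60.4 CPM in WT. The groups did not overlap, and the WT libraries lay within 1 CPM of each other. The log2 fold change was 0.18 (SE 0.0855, interval 0.995 to 1.29-fold), with an unadjusted edgeR p of 0.0572 (edgeR adjusted p = 0.531, 0.317 with the block and 0.465 with sex as a term). Hdac10, which deacetylates polyamines, stood at 8.8, 12.5 and 8.9 CPM in KO and at 7.6, 7.9 and 8.4 CPM in WT, where KO replicate 2 was well above the other KO libraries (0.34, SE 0.184, edgeR adjusted p = 0.588). The value of Hdac10 was 0.15 without KO replicate 2. Among libraries without cerebellar transcripts, where KO replicate 2 is the single KO library, it was 0.62 with an edgeR adjusted p of 0.0805, the smallest of any member under any alternative.

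Hdac11 (chr6:91156665-91174692), the most abundant member per length and a gene known from neurons and oligodendrocytes, stood at 190.3, 189.6 and 260.2 CPM in KO and at 204.6, 179.5 and 198.5 CPM in WT. KO replicate 3 alone was high, and the other KO libraries lay inside the WT range. The log2 fold change was 0.14 (SE 0.129, edgeR adjusted p = 0.780), and -0.03 without KO replicate 3, against 0.21 without KO replicate 1 or 2. While the oligodendrocyte markers were lower in KO by several fold, the interval of Hdac11, 0.902 to 1.34-fold, lay within 1.5-fold.

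The acetyl readers Brd2 and Brd3, which bind acetylated histones through paired bromodomains, had values of -0.08 (SE 0.0893) and 0.01 (SE 0.0904). Brd2 stood at 298.8, 262.8 and 287.3 CPM in KO and at 298.7, 300.4 and 296.0 CPM in WT, with KO replicate 2 the lowest. Its reads may be shared with H2-DMa on the opposite strand.

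Of the remodellers, Smarca4 and Smarca2 are the alternative ATPases of the BAF complex. Smarca4 (chr9:21616169-21704230) stood at 199.7, 164.8 and 196.9 CPM in KO and at 197.8, 197.1 and 203.2 CPM in WT, and KO replicate 2 alone was low (-0.09, SE 0.0976, edgeR adjusted p = 0.806). Without KO replicate 2 the value was -0.01, and without KO replicate 1 it was -0.14. Smarca2 stood at 197 ± 14.04 CPM in KO and 206 ± 16.95 CPM in WT. Chd8, a remodeller gene linked to autism in humans, stood at 98.8 ± 9.96 CPM in KO and 104 ± 6.91 CPM in WT.

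Chd7 (chr4:8690406-8867659), the remodeller mutated in CHARGE syndrome and a partner of SOX10 in oligodendrocytes, varied more than any other member. It stood at 52.4, 19.5 and 21.5 CPM in KO and at 51.0, 15.7 and 15.4 CPM in WT, so replicate 1 was high in both groups. The log2 fold change of KO over WT was 0.19 (SE 0.471, interval 0.554 to 2.34-fold, edgeR adjusted p = 0.931). In all same-numbered pairs the KO library held more Chd7 than the WT library, by 0.26 with the replicate block (adjusted p = 0.292). It was 1.0 without WT replicate 1 and -0.42 without KO replicate 1, and neither was called.

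Replicate 1 of each group also held the most cerebellar transcripts. The 5 granule cell markers summed to 385, 15.8 and 125 CPM in KO replicates 1 to 3 and to 367, 19.3 and 22.6 CPM in WT replicates 1 to 3. Between libraries with and without Gabra6 above 5 CPM, with genotype in the fit, 0 of 37 members were called by edgeR, where 0.729% of tested genes were, and 0 by DESeq2, where 1.09% were. An unadjusted edgeR p under 0.05 was found for 3 of 37, where 8.53% of genes had one. The value of Chd7, libraries with these transcripts over those without, was 1.33 on the log2 scale (SE 0.274, edgeR adjusted p = 0.0538). Over the alternatives its adjusted p ran from 3.70e-10 without a filter on low counts to 0.843 without WT replicate 1, and it was 1.03e-07 without KO replicate 3. Without KO replicate 3 the split sets replicate 1 of each group against the other libraries. Cerebellar transcripts and replicate number cannot be told apart in that fit. With length-adjusted offsets the difference was 1.28 (adjusted p = 0.00685), and Chd7 was the 1 member of 37 called, where 1.09% of genes were. With the replicate block the cerebellum is not tested, because pairs 1 and 2 each match in these transcripts. The term then gives how far the KO over WT difference of pair 3 departs from that of pairs 1 and 2. In that fit Chd7 was at 0.33 (adjusted p = 0.757), and 1 of 37 members was called, where 0.765% of genes were. It was Crebbp at -0.91 (adjusted p = 0.0041), the gene whose level stood apart in KO replicate 3, and no cerebellar difference is read from it. The other 2 members with an unadjusted p under 0.05 were Hdac1 (0.39, SE 0.163) and Kat6b (-0.32, SE 0.139). With the cerebellum as a term, the KO over WT value of Chd7 was -0.10. Among libraries with cerebellar transcripts alone (KO replicates 1 and 3 against WT replicate 1) it was -0.47, and among those without (KO replicate 2 against WT replicates 2 and 3) it was 0.32. Each subset leaves a single sample in 1 group, whose spread is taken to be that of the others. Counts of called genes are therefore not read from either subset. The part of the cerebellum in the levels of Chd7 was not tested beyond these values.

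**Figure D3:**
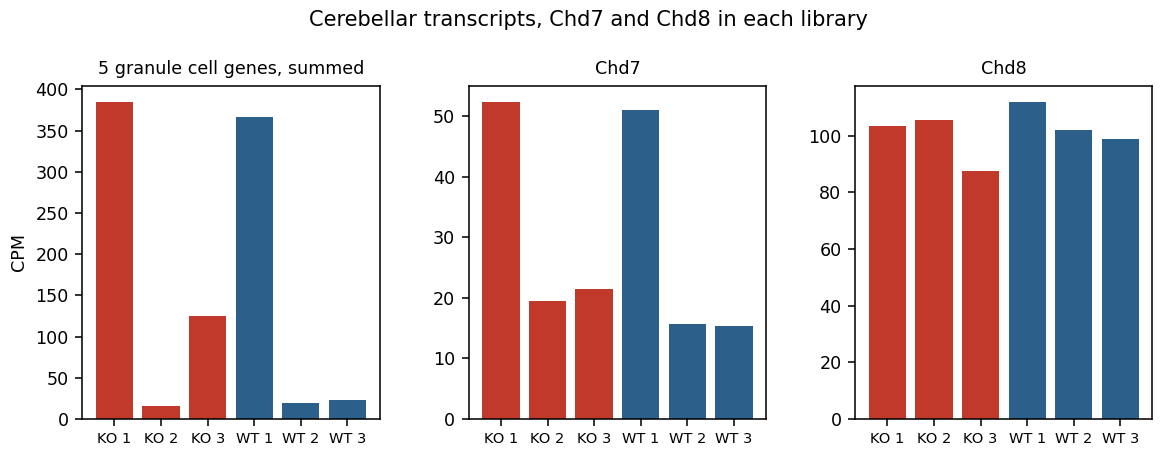
Summed CPM of 5 cerebellar granule cell genes (left), CPM of Chd7 (middle) and CPM of Chd8 (right) in each library, KO in red and WT in blue, with bars starting at 0. Chd7 is high in KO replicate 1 and WT replicate 1, at 52.4 and 51.0 CPM, where the granule cell genes are highest; Chd8 spans 87.4 to 112.1 CPM.

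Polycomb repressive complex 2 methylates lysine on histone H3. Its core subunit gene Eed (chr7:89954654-89980983) stood at 13.0, 12.6 and 12.3 CPM in KO and at 10.7, 10.4 and 10.2 CPM in WT. The groups did not overlap, and each was tight, but with 154 to 213 counts a library the log2 fold change of 0.27 (SE 0.135) had an unadjusted edgeR p of 0.0705 (edgeR adjusted p = 0.553, and 0.395 with the block). The value of Eed ran from 0.23 to 0.30 over the fits. Leaving out libraries could hardly change its sign, because the groups did not overlap. The catalytic subunit genes had negative values. Ezh1, of resting cells, stood at 36.8 ± 2.26 CPM in KO and 38.0 ± 1.40 CPM in WT, and Ezh2 at 7.69 ± 1.02 CPM in KO and 8.91 ± 2.01 CPM in WT (-0.21, SE 0.204). The subunit gene Suz12 stood at 28.8 ± 2.91 CPM in KO and 27.0 ± 3.14 CPM in WT. Reads of Eed may be shared with E230029C05Rik on the opposite strand.

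Of the corepressors, Ncor1 (chr11:62316426-62458541), the scaffold that activates Hdac3, had the smallest p. It stood at 212.7, 183.6 and 161.7 CPM in KO and at 212.8, 213.7 and 193.7 CPM in WT. KO replicate 1 lay inside the WT range, and the value of -0.15 (SE 0.111, edgeR adjusted p = 0.696) was -0.07 with length-adjusted offsets. Sin3a, the scaffold of the SIN3 complex, stood at 38.9, 39.3 and 38.8 CPM in KO and at 36.0, 38.3 and 38.6 CPM in WT. The groups did not overlap, but their nearest libraries almost touched (0.05, SE 0.0951). Kdm1a, the demethylase of the CoREST complex, stood at 70.2 ± 4.96 CPM in KO and 69.7 ± 1.30 CPM in WT.

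Of the DNA methyltransferases, Dnmt1, which copies methylation after replication, stood at 65.5 ± 4.90 CPM in KO and 65.8 ± 3.005 CPM in WT, the value nearest to 0 of all 37 (-0.01, SE 0.0922). Dnmt3a (chr12:3806007-3914443), which sets new methylation in maturing neurons, stood at 240.6, 188.9 and 193.0 CPM in KO and at 251.5, 223.1 and 224.2 CPM in WT, with KO replicate 1 inside the WT range (-0.17, SE 0.113, edgeR adjusted p = 0.671). With length-adjusted offsets the value of Dnmt3a was -0.06.

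Ratios between paralogs do not depend on the scaling factor of a library. They can still follow a trend with exonic length where the paralogs differ in length. Of 8 ratios of RPKM, 7 overlapped between the groups. Dnmt3a over Dnmt1 was 1.52, 1.39 and 1.30 in KO and 1.61, 1.53 and 1.56 in WT, all KO libraries below all WT libraries. The two-sided exact permutation p was 0.1, the smallest that 3 against 3 allows, and 0.8 adjusted over the 8. Dnmt3a has 16642 bases of exon and Dnmt1 has 7377. Their log2 fold changes were -0.17 and -0.01, and -0.06 and 0.04 with length-adjusted offsets. The part of length in this ratio was not tested. Hdac2 exceeded Hdac1 by 6.43 ± 0.977-fold in KO and 5.80 ± 1.23-fold in WT, and Ezh1 exceeded Ezh2 by 4.36 ± 0.777-fold in KO and 3.99 ± 1.08-fold in WT (SD, n = 3 each). Smarca4 exceeded Smarca2 by 2.10 ± 0.280-fold in KO and 2.15 ± 0.165-fold in WT, and Ep300 exceeded Crebbp by 1.37 ± 0.255-fold in KO and 1.34 ± 0.0753-fold in WT.

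Exonic length set apart some of the members. The median member had 6475 bases of exon and the median tested gene 4398, and 10 of 37 members (27.0%) had at least 10 kb, against 9.56% of tested genes. These 10 are Kat6b, Ep300, Crebbp, Hdac4, Hdac9, Smarca2, Chd7, Chd8, Ncor1 and Dnmt3a. In 9 of the 10 the KO over WT value was negative, with a median of -0.07, against 12 of the 27 shorter members, with a median of 0.01. All tested genes of at least 10 kb had a median of -0.09. In KO replicate 3 the long members lay at a median of -0.30 on the log2 scale from the mean of the 6 libraries, and 8 of the 10 had their lowest level there. In KO replicates 1 and 2 the median was 0.12 and -0.05, and in WT replicates 1 to 3 it was 0.11, 0.02 and 0.04. The 27 shorter members lay at 0.01 in KO replicate 3, where 8 of them had their highest level. In the same library all tested genes of at least 10 kb lay at a median of -0.22, and shorter tested genes at 0.03. The shares of all tested genes with their lowest or highest level there are not given here.

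**Figure D4:**
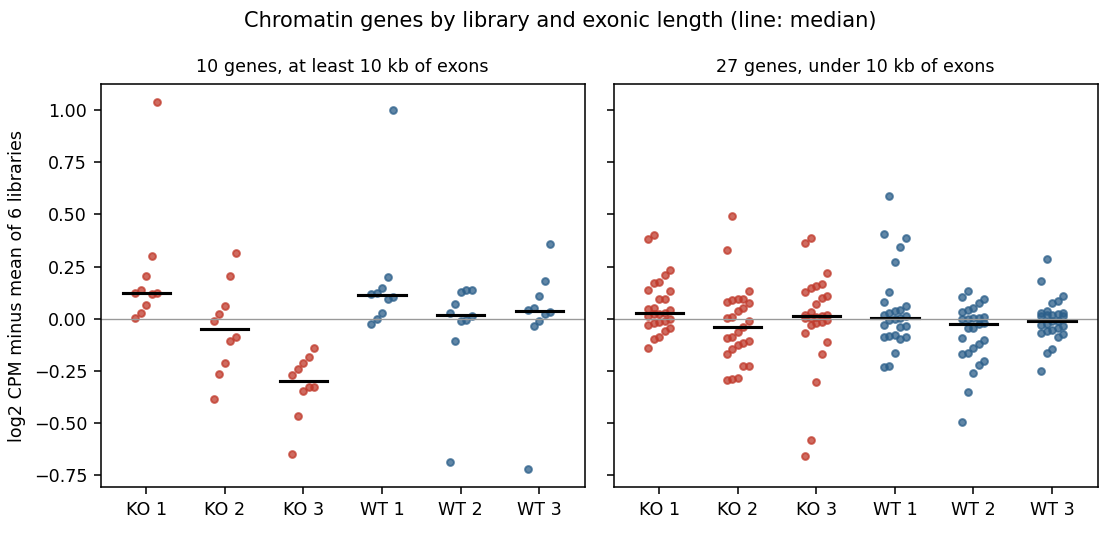
Log2 CPM of each member minus its mean over the 6 libraries, for 10 genes with at least 10 kb of exons (left) and 27 shorter genes (right), with KO in red, WT in blue and a line at the median. The long genes lie low in KO replicate 3, at a median of -0.30, and the single high points in KO replicate 1 and WT replicate 1 are Chd7.

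Across the 37 members the log2 fold change of KO over WT had a Spearman correlation of -0.56 with exonic length, a description of genes measured in the same 6 libraries. Over all 15244 tested genes with a gene model it was -0.27. Without KO replicate 3 it was -0.18 across the members. With offsets adjusted for length in each library it was -0.28, the negative values among the long members numbered 4 of 10, and the median of the 37 was 0.02. Over the 15244 genes, the deviation of each library from the mean of the 6 was also correlated with exonic length. The Spearman correlation was 0.19, -0.14 and -0.41 in KO replicates 1 to 3. In WT replicates 1 to 3 it was 0.22, 0.11 and 0.11. The small negative values of long members therefore cannot be told apart from these length trends, of which that of KO replicate 3 was the largest. The values of Eed, Hdac6 and Hdac8 changed little with the adjustment, to 0.25, 0.20 and 0.30.

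**Figure D5:**
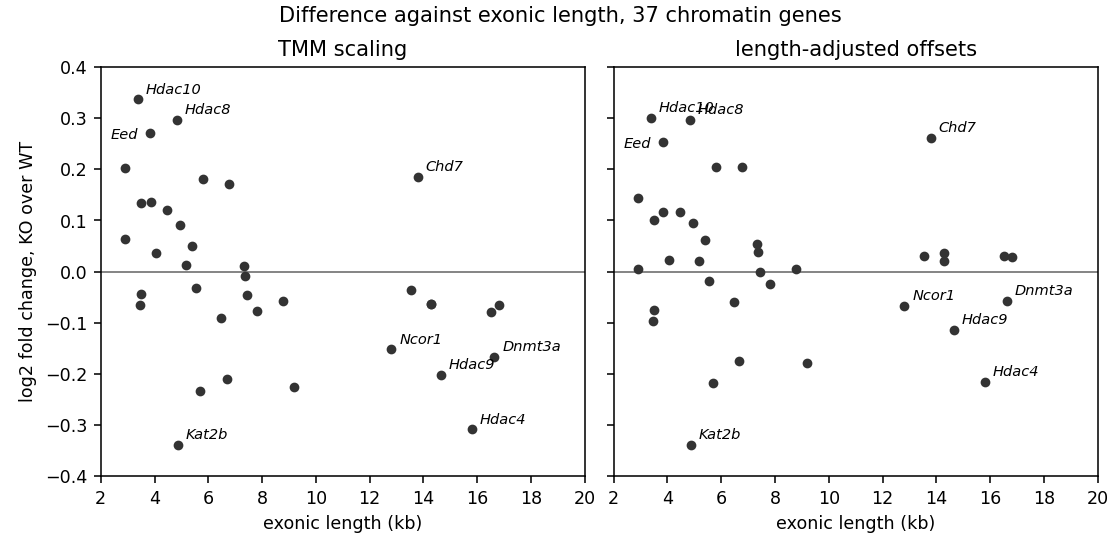
Log2 fold change of KO over WT against exonic length in kb for the 37 members, with TMM scaling (left) and with offsets adjusted for length in each library (right). On the left 9 of the 10 genes of at least 10 kb lie below 0, and on the right 4 of 10 do.

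The other genes of these complexes were read from 7 lists of 202 genes, all of which were tested. Of 202, 0 were called by edgeR, where 1.20% of genes were, and 1 by DESeq2, where 1.90% of genes were. An unadjusted edgeR p under 0.05 was found for 9 of 202 (5 positive, 4 negative), where 9.67% of genes had one. The median over the 202 was -0.02, and list medians ran from -0.08 for the other acetyl readers (25 genes) to 0.02 for acetyltransferase complexes (40 genes) and 0.02 for the other DNA methylation genes (8 genes). With the replicate block 4 of 202 were called, where 3.41% of genes were. These were Kmt5a and Pcgf3, lower in KO, and Uhrf1 and Cecr2, higher.

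Kmt5a (Setd8 in the table, chr5:124439930-124462308), which places a single methyl group on histone H4 lysine, came nearest to the threshold. It stood at 37.9, 37.1 and 33.3 CPM in KO and at 53.7, 48.0 and 49.0 CPM in WT, and the groups lay far apart. The log2 fold change was -0.48 (SE 0.101; edgeR adjusted p = 0.0532, 0.00582 with the block and 0.00891 by DESeq2). Over the alternatives its adjusted p ran from 0.00572 to 0.667. Pcgf3, a subunit of variant Polycomb complexes, stood at 38.9, 34.97 and 28.0 CPM in KO and at 43.3, 44.7 and 46.3 CPM in WT (-0.40, SE 0.126, edgeR adjusted p = 0.278, and 0.04996 with the block). Uhrf1, which brings DNMT1 to replicating DNA, stood at 7.36, 3.91 and 5.59 CPM in KO and at 4.37, 2.16 and 2.77 CPM in WT (0.85, SE 0.311, edgeR adjusted p = 0.380, and 0.0365 with the block). The groups overlapped, and the cycling cell marker Mki67 stood at 28.1, 14.9 and 17.2 CPM in KO and at 20.2, 15.7 and 10.8 CPM in WT; its part in the value of Uhrf1 was not tested. Cecr2, a bromodomain remodeller gene, stood at 9.36, 6.80 and 5.34 CPM in KO and at 4.497, 5.95 and 1.93 CPM in WT (0.80, SE 0.354, edgeR adjusted p = 0.497, and 0.0477 with the block).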

How the data were processed

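Polyadenylated RNA of mouse brain was sequenced in 3 KO and 3 WT samples. The authors deposited raw counts for each gene symbol, summed over its UCSC exons, with 1 column per sample; a normalized version was not used here. The tools named by the submitters' processing notes are STAR 2.3.0e for mm10, featureCounts 1.5.0, Trimmomatic 0.32, FastQC 0.11.2 and DESeq2. The strand setting and the treatment of multiply mapped reads are not given in the sources used here, so reads of overlapping genes may be shared.

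The deposited counts were tested in R 4.3.3 with edgeR 4.0.16 (filterByExpr, TMM, glmQLFit, glmQLFTest, no covariate), which left 16592 genes, 4 residual degrees of freedom and a common biological coefficient of variation of 0.15. A gene was called at a Benjamini-Hochberg (BH) adjusted p under 0.05, taken over all tested genes. Intervals are at 95%, and CPM are on TMM-scaled totals. The script was checked on simulated counts. Libraries of a group differed by 6.75 to 27.4 times the chi-square of counting noise, so none was a duplicate.

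Same-numbered KO and WT samples deviated together, with correlations of 0.351, 0.334 and 0.177 over genes. All exceed 0.1, and a fit with the number as a block was therefore made; the labels do not state a pairing. Alternatives were 2 other scalings, 2 other filters, DESeq2 1.42.0, the replicate block, leaving out each library, terms for cerebellar transcripts (Gabra6 above 5 CPM) and for sex (Xist above 5 CPM), libraries with or without cerebellar transcripts alone, and offsets adjusted for exonic length by loess (span 0.5). Exonic lengths and coordinates are from GENCODE M21 (mm10), and 8 genes of the other lists were found under older symbols.

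The members, the lists and the tests were chosen with earlier results of these data known. Values in every sample are given for members called with or without the block, the member with the smallest p of each role, the 8 smallest p, and the highest and lowest level per length; and for called genes of the other lists. Hdac2, Hdac5, Sin3a, Kat2b, Crebbp and Chd7 were added after their values were seen, and so were the 8 paralog ratios.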

Additional observations from a re-analysis of the deposited data

How the results depend on the processing

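The count of members called for KO against WT was 0 of 37 under all 19 alternatives, at a smallest adjusted p of 0.0805. In these 703 uncalled values the sign differed from that of the reported fit in 59, over 18 members, whose reported values were at most 0.21 in size; such a change of sign was not counted as a reversal. The other 19 members had the same sign throughout. Counts over all genes, 199 as reported, were 315 with DESeq2, 566 with the replicate block, 535 with that block and the cerebellum term, 481 with length-adjusted offsets with replicate block, 1254 among libraries without cerebellar transcripts and 129 with the sex term, and 100 to 305 when single libraries were left out. Counts for the 202 other chromatin genes, 0 as reported, were 4 with the replicate block, 2 with length-adjusted offsets with replicate block, 1 with length-adjusted offsets, 1 with the cerebellum term with replicate block, 1 with DESeq2, 1 without a filter, 13 among libraries without cerebellar transcripts, and ran from 0 to 2 without each library. These counts are to be read beside those over all genes in the same fits, given above. Over all genes they were also 220 with length-adjusted offsets and 252 without a filter. Among libraries without cerebellar transcripts KO is a single library, and no conclusion is drawn from the counts there. Members called between libraries with and without cerebellar transcripts were 0 as reported. With length-adjusted offsets 1 (Chd7) was called, where 1.09% of genes were. It was also the 1 called without a filter or with the sex term. Without each library 0 to 3 were called, the highest (Kat2b, Kat6a and Chd7) without KO replicate 3. In that fit the split is replicate 1 of each group against the other libraries, so no cerebellar difference is read from it. Shares over all genes are not given here for the fits without a filter, with the sex term or without each library. With the replicate block 1 (Crebbp, -0.91) was called, where 0.765% of genes were. The term there sets the KO over WT difference of pair 3 against that of pairs 1 and 2. The causes of these changes in the counts were not tested. Other scalings moved the median of all genes to 0.01 (DESeq2 size factors) and 0.04 (upper quartile). Depth limits the less abundant members, with 104 counts at the lowest, and 3 samples a group limit all of them.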
